A study of Homo sapiens with 21 samples.

Results

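Cells labelled HepG2, an established line from a hepatic cancer, were kept for 24 h in serum-free medium with 100 µM coumarin, a benzopyrone made by plants, and were set against cells kept for 24 h in the same medium with 0 µM. Each group had 3 libraries, which the labels call biological replicates, so 6 of the 21 libraries of the dose series were compared. The other 15 libraries received 0.001 to 10 µM and entered the shared estimate of the spread. The coumarin stock was made in culture medium, and the labels name no transgene and no other agent for either group. Members of the comparison were the libraries whose labels give these 2 doses, and every gene with enough counts was tested. The targets of the ATF4 stress response, of the aryl hydrocarbon receptor and of retinoic acid are left aside except where a neighbouring gene or a gene family brings them in.

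A cell reads and alters its surroundings through a few large classes of gene product. Transcription factors bind DNA and set which genes are read. Integrins, channels, transporters and receptors sit in the plasma membrane, while growth factors, binding proteins and matrix proteins are released. Small GTPases, cyclic nucleotide enzymes and the cytoskeleton pass signals on inside the cell. Long noncoding RNAs (lncRNAs) are transcribed without coding for protein, and some of them host small nucleolar RNAs in their introns.

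The 3 libraries at 100 µM held 28912851, 29389939 and 38448896 gene counts, and those at 0 µM held 29953336, 29254566 and 29727205. Of 58735 genes, 16699 were tested, and the common biological coefficient of variation was 4.49%. Reads that fell in no listed gene, estimated from the total implied by the deposited FPKM, made up 2.86% to 3.93% of a library at 100 µM, against 3.91%, 8.03% and 8.17% in untreated replicates 1, 2 and 3. Untreated replicates 2 and 3 stand apart by this measure and by their TMM scaling factors of 1.04 and 1.043. Many results are therefore also given against untreated replicate 1 alone or against the 12 libraries at 0.001 to 1 µM. The first of these leaves 1 untreated library, so fewer calls there can come from lost precision alone. None of 12 markers of hepatocytes reached 1 CPM (a gene's count relative to the TMM-scaled library total), and their summed level was 0 to 0.174 CPM at 100 µM and 0.0334 to 0.131 CPM at 0 µM. Those at 0 counts in all 6 libraries numbered 6, among them ALB, TTR and FOXA2. The cells are therefore called by their label only. Summed markers of simple epithelium were 3313 to 3401 CPM at 100 µM and 4184 to 4655 CPM at 0 µM, and mesenchymal ones 1483 to 1528 CPM and 1685 to 1773 CPM. Of the epithelial markers, KRT8 and KRT18 fell, KRT7 did not pass the test (0.00), and EPCAM, KRT19 and CDH1 were under 1 CPM, EPCAM at 0 in all 6 libraries. Of the mesenchymal ones, COL1A2 had at most 1 count in a library and was not tested. COL3A1, PDGFRB and FN1 fell, CDH2 rose by 0.14, and VIM and COL1A1 did not pass the test (0.04 and 0.09). The part of these shifts in the results was not tested. Summed markers of endothelium were 0.0522 to 0.577 CPM at 100 µM and 0.645 to 1.18 CPM at 0 µM, and those of leukocytes stayed under 0.2 CPM. In bulk libraries, fewer cells of a kind and less RNA per cell cannot be told apart.

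At 100 µM, 4558 genes changed (27.3% of those tested) by edgeR's quasi-likelihood test at an adjusted p under 0.05 after Benjamini and Hochberg, 2409 of them upward (14.4%) and 2149 downward (12.9%). Most changes were small: the median absolute log2 change of the called genes was 0.27, and 58.2% of them moved by less than 0.3 on the log2 scale. With upper-quartile scaling in place of TMM, 1875 rose and 2659 fell, so the share of rises among all calls was 41.4% in place of 52.9%. The balance of rises and falls over all genes thus rests on the scaling, and so do medians close to 0. At least 2-fold changes were seen in 311 genes (1.86%), 96 of them rises (0.575%) and 215 falls (1.29%). With untreated replicate 1 as the only control fewer genes were called, but that fit has less precision.

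Among secreted, cell-surface and intracellular products of the lists, falls outnumbered rises. The lists for secreted products, which also hold membrane-bound proteins such as FAP, had 393 tested genes. Of these, 46 rose (11.7%) and 115 fell (29.3%), with a median log2 change of -0.12 against -0.01 for all genes tested. Among 779 cell-surface genes, 90 rose and 162 fell (20.8%), with a median of -0.05. Intracellular families held 1044 tested genes, of which 155 rose (14.8%) and 217 fell (20.8%). In the transcription factor families, 117 of 795 rose (14.7%) and 93 fell (11.7%). The lists hold coding genes only, and of all tested coding genes 17.6% rose and 14% fell. With upper-quartile scaling, 89 of them rose and 114 fell. Coding genes in none of these lists had 1818 rises (18.9%) and 1187 falls (12.3%) among 9622 genes, but upper-quartile scaling gave 1402 and 1552. In the secreted and cell-surface classes, falls outnumbered rises under upper-quartile scaling, against untreated replicate 1 alone and against the 0.001 to 1 µM libraries as well, with 84 to 143 and 92 to 216 falls.

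**Figure D1:**
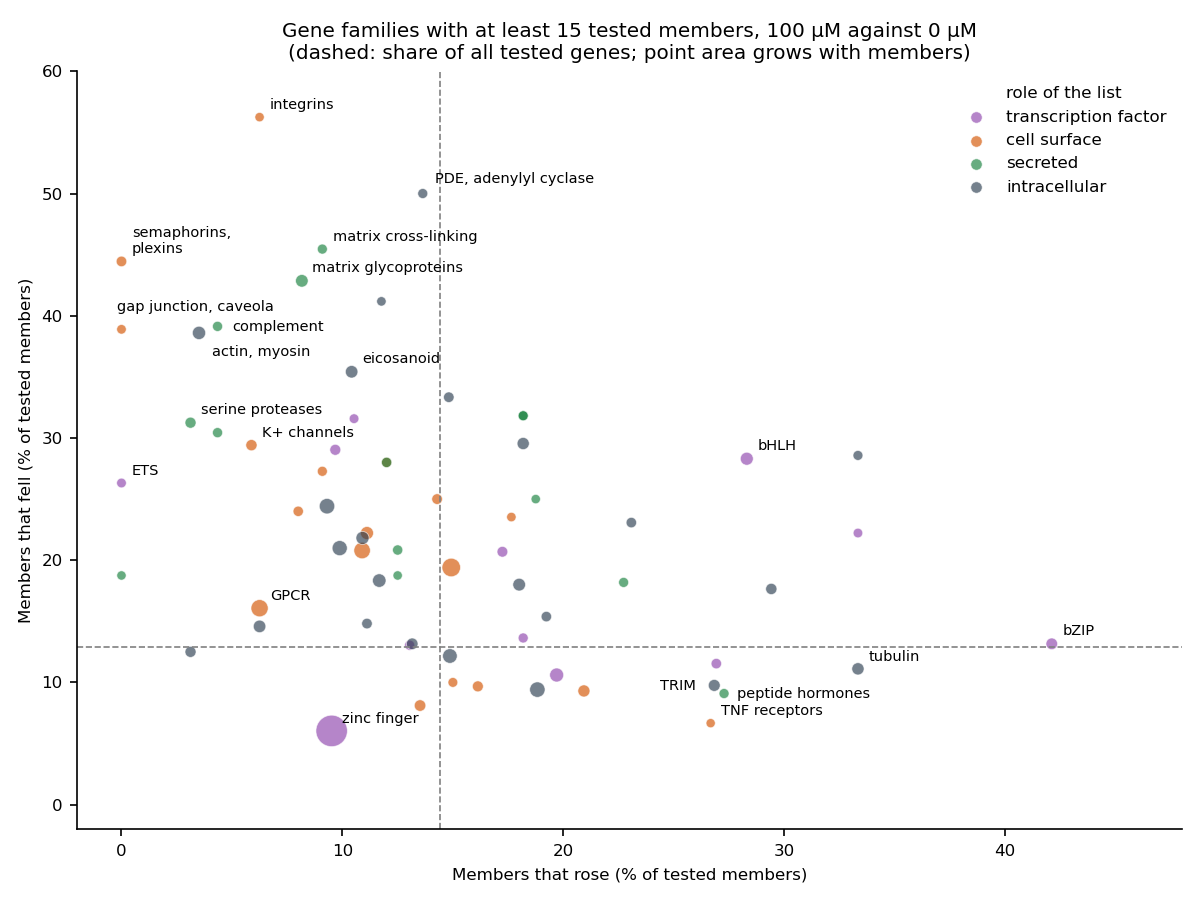
Percentage of tested members that rose (horizontal axis) and that fell (vertical axis) at 100 µM against 0 µM, for every gene family with at least 15 tested members, coloured by role, with point area growing with the number of members. Dashed lines mark the shares over all tested genes, 14.4% and 12.9%. The families hold coding genes only, and of all tested coding genes 17.6% rose and 14% fell. Integrins, semaphorins with plexins, and cyclic nucleotide enzymes lie at the top left, and basic leucine zipper and tubulin genes lie at the right.

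Among transcription factors, basic leucine zipper genes outside the ATF4 list had more rises than falls. These factors bind DNA as dimers held by a zipper of leucines. Of 38 tested, 16 rose and 5 fell, with a median log2 change of 0.11, while upper-quartile scaling gave 14 and 7 and untreated replicate 1 alone 11 and 3. JUN, a subunit of the AP-1 complex that forms such dimers with FOS proteins, had 31.2, 27.5 and 30.3 CPM at 100 µM, against 17.5, 17.6 and 17.9 CPM at 0 µM. All 3 treated libraries lay above all 3 untreated ones. For every gene named by its size of change the groups did not overlap, in one direction or the other, because the naming rule required it (40.8% of all tested genes had groups that did not overlap). The log2 change of JUN was 0.75 ± 0.07 (SE; edgeR adjusted p = 4.1e-11). JDP2, a repressor of AP-1, rose by 0.49 and XBP1, a factor of the endoplasmic reticulum stress response, by 0.35 on the log2 scale.

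FOS, the AP-1 partner of JUN, had 51.1, 52.9 and 48.8 CPM at 100 µM and 28.6, 24.5 and 26.4 CPM at 0 µM, a log2 change of 0.94 ± 0.13 (edgeR adjusted p = 6e-05). Its level did not follow dose in order, since the mean was 45.6 CPM at 0.01 µM and 23.1 CPM at 0.1 µM. EGR1, a zinc finger factor made early after growth stimuli, had 4.29, 3.87 and 3.13 CPM at 100 µM and 2.37, 1.71 and 2.10 CPM at 0 µM. Its rise of 0.86 was lost against untreated replicate 1 alone, against the 0.001 to 1 µM libraries and with reads in no listed gene as a covariate (highest edgeR adjusted p = 0.33), and its mean at 0.01 µM, 5.59 CPM, was above that at 100 µM. The orphan nuclear receptor genes NR4A2 and NR4A1, also early-response genes, rose by 0.59 and 0.44 on the log2 scale.

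KLF4, a zinc finger factor of epithelial differentiation, had 13.3, 12.5 and 12.1 CPM at 100 µM, against 6.92, 7.30 and 6.04 CPM at 0 µM, so each treated library was above each untreated one. The log2 change was 0.90 ± 0.09 (edgeR adjusted p = 7.9e-10). In the KLF, SP and EGR list, 4 of 22 rose and 3 fell, among them KLF7 by 0.44 and KLF9 by 0.28. HOXB9, a homeobox gene of the HOXB cluster, had 25.3, 25.96 and 26.2 CPM at 100 µM and 14.2, 14.5 and 12.8 CPM at 0 µM, a log2 change of 0.90 ± 0.07 (edgeR adjusted p = 2e-13). It was among only 3 of 31 tested HOX genes that rose, while 9 fell, with HOXA3 at -0.80 ± 0.15 and HOXB3 at -0.44 ± 0.07. Against untreated replicate 1 alone, 1 HOX gene rose and 4 fell. FOXQ1, a forkhead factor, rose by 0.81 ± 0.17.

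The largest falls among transcription factor genes named by size were in ELF3 and ATOH8. ELF3, an epithelial member of the ETS family, had 30.4, 30.99 and 28.9 CPM at 100 µM, against 57.9, 56.0 and 56.3 CPM at 0 µM. That is a log2 change of -0.92 ± 0.05 (edgeR adjusted p = 5.8e-17). No ETS gene rose and 5 of 19 fell (26.3%), among them ETV1 at -0.60. Of all tested coding genes, 14% fell and 31.6% were called in either direction. ATOH8, a basic helix-loop-helix factor, had 19.2, 18.8 and 19.2 CPM at 100 µM and 37.4, 32.9 and 33.2 CPM at 0 µM, a change of -0.86 ± 0.06. Of its family, 15 of 53 genes rose and 15 fell. Among them ID2, an inhibitor of such factors that cannot itself bind DNA, rose by 0.70, and HIF1A, the oxygen-regulated subunit of hypoxia-inducible factor, fell by 0.34.

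SMAD3, which carries TGF-beta receptor signals to the nucleus, had 86.8, 87.0 and 82.2 CPM at 100 µM and 132, 136 and 138 CPM at 0 µM. Its log2 change was -0.67 ± 0.04 (edgeR adjusted p = 1.8e-15), and SMAD2 fell by 0.20. NFATC4, a calcium-dependent factor, and NPAS2, a partner of the circadian protein BMAL1, fell by 0.71 and 0.64. GATA2 fell to 59.6 ± 1.29 CPM at 100 µM, against 88.4 ± 3.37 CPM at 0 µM (SD, n = 3 each), and VDR, the vitamin D receptor, fell to 30.9 ± 0.724 CPM, against 42.9 ± 1.17 CPM. Falls were common among the signal-transducing STAT factors, where 4 of 6 fell and 1 rose. STAT3 and STAT6 changed by -0.27 and -0.25. The 431 zinc finger genes of the ZNF, ZFP, ZSCAN, ZKSCAN and ZBTB series were called in 15.5%. Of these, 41 rose and 26 fell, while upper-quartile scaling gave 25 and 36 and untreated replicate 1 alone 28 and 5.

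**Figure D2:**
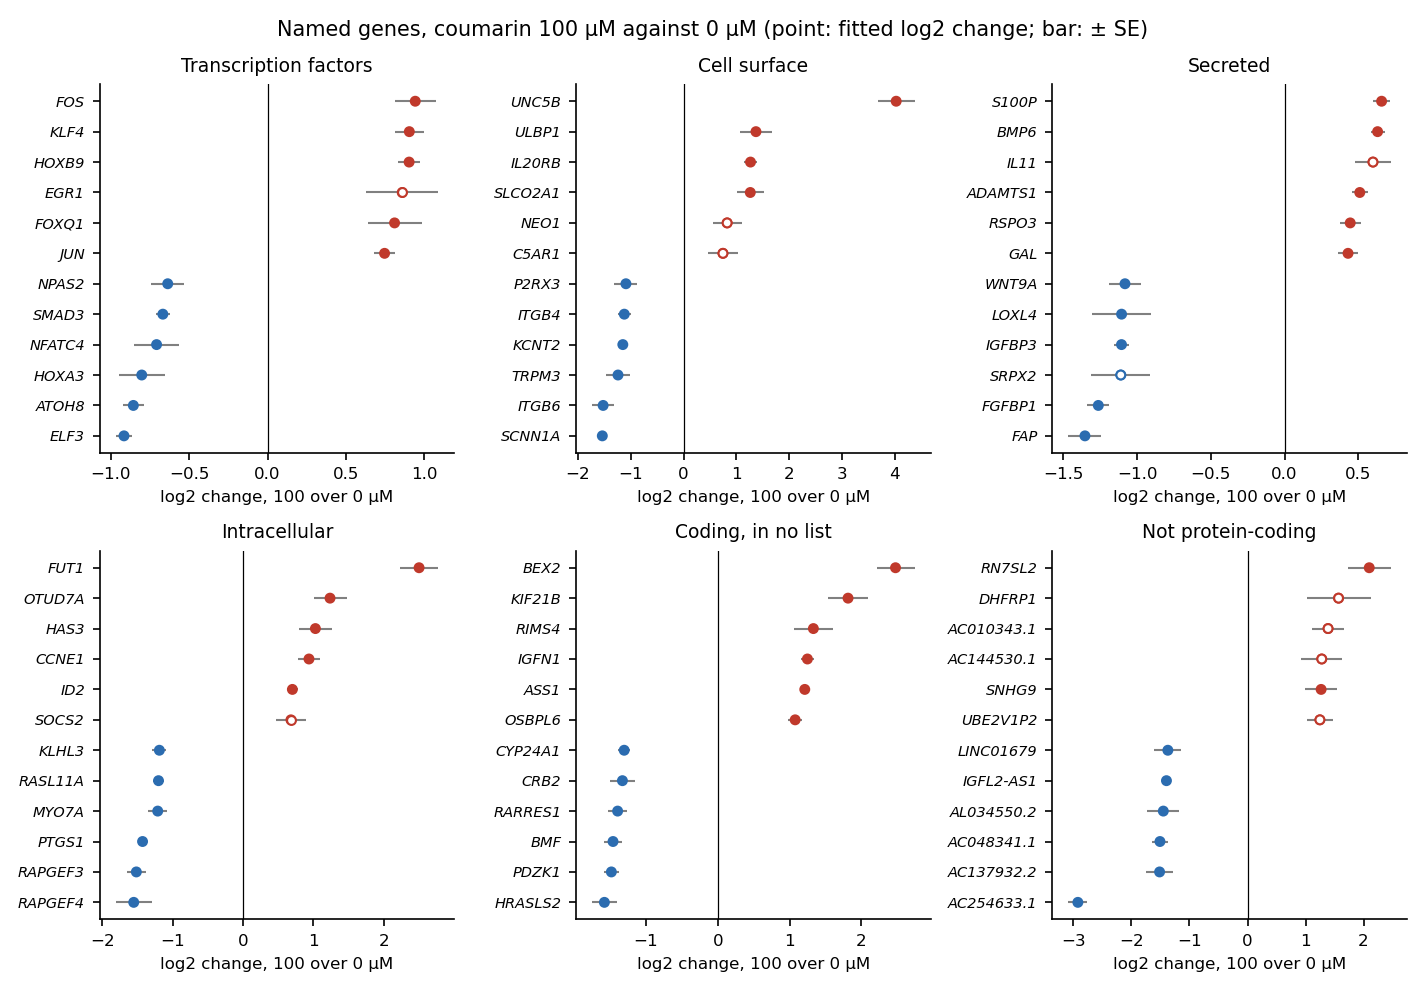
Fitted log2 change at 100 µM against 0 µM (horizontal axis) with its standard error for the 6 largest rises and 6 largest falls of each class, red for rises and blue for falls. Filled points were called in all 18 alternative analyses and open points, such as EGR1, NEO1, C5AR1 and DHFRP1, lost the call in at least 1. UNC5B at 4.02, from an untreated mean of 0.175 CPM, and the lncRNA gene AC254633.1 at -2.92 lie farthest from 0.

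UNC5B, a receptor for the guidance protein netrin, had the largest rise of the cell-surface genes named by size. The gene (ENSG00000107731; GRCh38 chromosome 10, 71212570 to 71302864) had 2.55, 2.79 and 3.37 CPM at 100 µM, against 0.1336, 0.197 and 0.194 CPM at 0 µM. The treated libraries lay far above the untreated ones, and the fitted log2 change was 4.02 ± 0.35 (edgeR adjusted p = 5.4e-12). The untreated levels were close to the 0.1 CPM that 3 counts in a library correspond to, so the size of this change is imprecise. NEO1, another netrin receptor, had 1.01, 1.77 and 1.15 CPM at 100 µM and 1.00, 0.691 and 0.516 CPM at 0 µM, so the groups nearly touch. Its call (edgeR adjusted p = 0.023) was lost in 5 of 18 alternatives. ULBP1, a stress-induced ligand of the natural killer cell receptor NKG2D, rose by 1.37 ± 0.31, while RAET1E of the same ligand family fell by 0.79 ± 0.17. SLCO2A1, which carries prostaglandins, rose by 1.26 ± 0.25. The complement fragment receptor gene C5AR1 rose by 0.74 at an edgeR adjusted p of 0.048, a call kept in only 5 of 18 alternatives.

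IL20RB, a chain of the receptors for interleukins of the IL-20 group, had 9.45, 8.12 and 9.66 CPM at 100 µM and 4.58, 2.96 and 3.81 CPM at 0 µM, a log2 change of 1.27 ± 0.13 (edgeR adjusted p = 3e-10). Other cytokine receptor genes were mixed, with 4 rises and 7 falls among 28, but 4 and 1 against untreated replicate 1 alone. CSF2RA and LIFR rose by 0.46 and 0.22 on the log2 scale. Among 25 receptor tyrosine kinases outside the Eph family, 2 rose and 6 fell. PDGFRB, the receptor of platelet-derived growth factor B, fell to 20.1 ± 1.32 CPM at 100 µM, against 37.2 ± 0.577 CPM at 0 µM. The collagen receptors moved apart: DDR2 rose by 2.21 ± 0.15, and DDR1 fell by 0.34 ± 0.04.

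Integrins join the cytoskeleton to the matrix as pairs of an alpha and a beta subunit. Of 16 tested subunit genes, 9 fell and 1 rose, with a median log2 change of -0.21 against -0.01 for all genes. ITGB4, the beta subunit of hemidesmosomes, had 3.49, 3.91 and 2.19 CPM at 100 µM and 7.02, 6.71 and 6.81 CPM at 0 µM. The treated libraries differed among themselves but stayed below the untreated ones, and the change was -1.12 ± 0.13 (edgeR adjusted p = 4.2e-09). ITGB6, an epithelial beta subunit, had 0.767, 0.748 and 0.809 CPM at 100 µM, against 2.07, 2.56 and 2.10 CPM at 0 µM (-1.53 ± 0.21). The more abundant ITGB5 fell to 198 ± 4.76 CPM, against 292 ± 2.81 CPM. Against the 0.001 to 1 µM libraries the integrin counts were again 9 falls and 1 rise, and against untreated replicate 1 alone 6 falls and no rise.

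No member of the semaphorin, plexin and neuropilin list rose, and 12 of 27 fell, with a median of -0.21, while 5 fell against untreated replicate 1 alone. Semaphorins are guidance proteins, and plexins and neuropilins are their receptors. NRP2, a co-receptor of semaphorins and of vascular growth factors, fell to 21.7 ± 0.201 CPM at 100 µM, against 40.9 ± 1.67 CPM at 0 µM (-0.91 ± 0.05; edgeR adjusted p = 9.3e-17). SEMA3B and SEMA3C fell by 0.33 and 0.25. Of 18 gap junction and caveola genes, 7 fell and none rose, with CAVIN2 at -1.64 ± 0.22 and CAV2 at -0.35 ± 0.04. Cadherins gave no stable picture: 5 rose and 3 fell of 37, but 1 rose and 9 fell against the 0.001 to 1 µM libraries.

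SCNN1A had the largest fall of the cell-surface genes named by size, all of which averaged at least 1 CPM. It encodes the alpha subunit of the epithelial sodium channel (ENSG00000111319; chromosome 12, 6346843 to 6377730). Its level was 12.2, 11.7 and 13.5 CPM at 100 µM, against 37.4, 35.4 and 36.5 CPM at 0 µM, 2.91-fold lower. The log2 change was -1.54 ± 0.06 (edgeR adjusted p = 6e-22). SLC12A3, the sodium chloride cotransporter that thiazide drugs block in the kidney, had 148, 156 and 151 CPM at 100 µM and 267, 289.96 and 287 CPM at 0 µM (-0.89 ± 0.04). KLHL3, a substrate adaptor of an E3 ubiquitin ligase that in the kidney regulates this cotransporter through WNK kinases, had 4.46, 5.00 and 4.07 CPM at 100 µM and 9.09, 10.3 and 11.3 CPM at 0 µM. Its change was -1.19 ± 0.10 (edgeR adjusted p = 1.5e-12). The water and glycerol channel gene AQP3 fell by 0.49 and PDZK1, a scaffold of apical transporters, by 1.48.

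Over the whole families, 20 solute carrier genes outside amino acid transport rose and 26 fell, 34.3% of those tested, against 31.6% of all tested coding genes. Potassium channel genes had 2 rises and 10 falls among 34, and other ion channel genes had 11 and 21 among 101. Against untreated replicate 1 alone, rises and falls were 10 and 15 for solute carriers, 0 and 6 for potassium channels and 5 and 9 for other channels. KCNT2, a sodium-activated potassium channel, had 5.68, 5.71 and 5.17 CPM at 100 µM, against 12.7, 11.7 and 12.3 CPM at 0 µM, and KCNK3 fell by 0.67. Among the channels named by size, TRPM3, a cation channel opened by heat, fell by 1.24 ± 0.23 and P2RX3, an ATP-gated channel of sensory neurons, by 1.09 ± 0.22, both under 2 CPM in either group. ABCC3, an exporter of organic anions, fell to 31.3 ± 0.965 CPM, against 50.6 ± 1.05 CPM. CLIC4, a chloride intracellular channel protein gene, rose by 0.47 and ATP1B3, a subunit of the sodium pump, by 0.36. G protein-coupled receptors had 7 rises and 18 falls among 112, so 22.3% were called, against 31.6% of all tested coding genes. Their median log2 change was -0.10, and -0.04 against untreated replicate 1 alone. GLP2R changed by -0.43 and GPRC5A by -0.73.

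**Figure D3:**
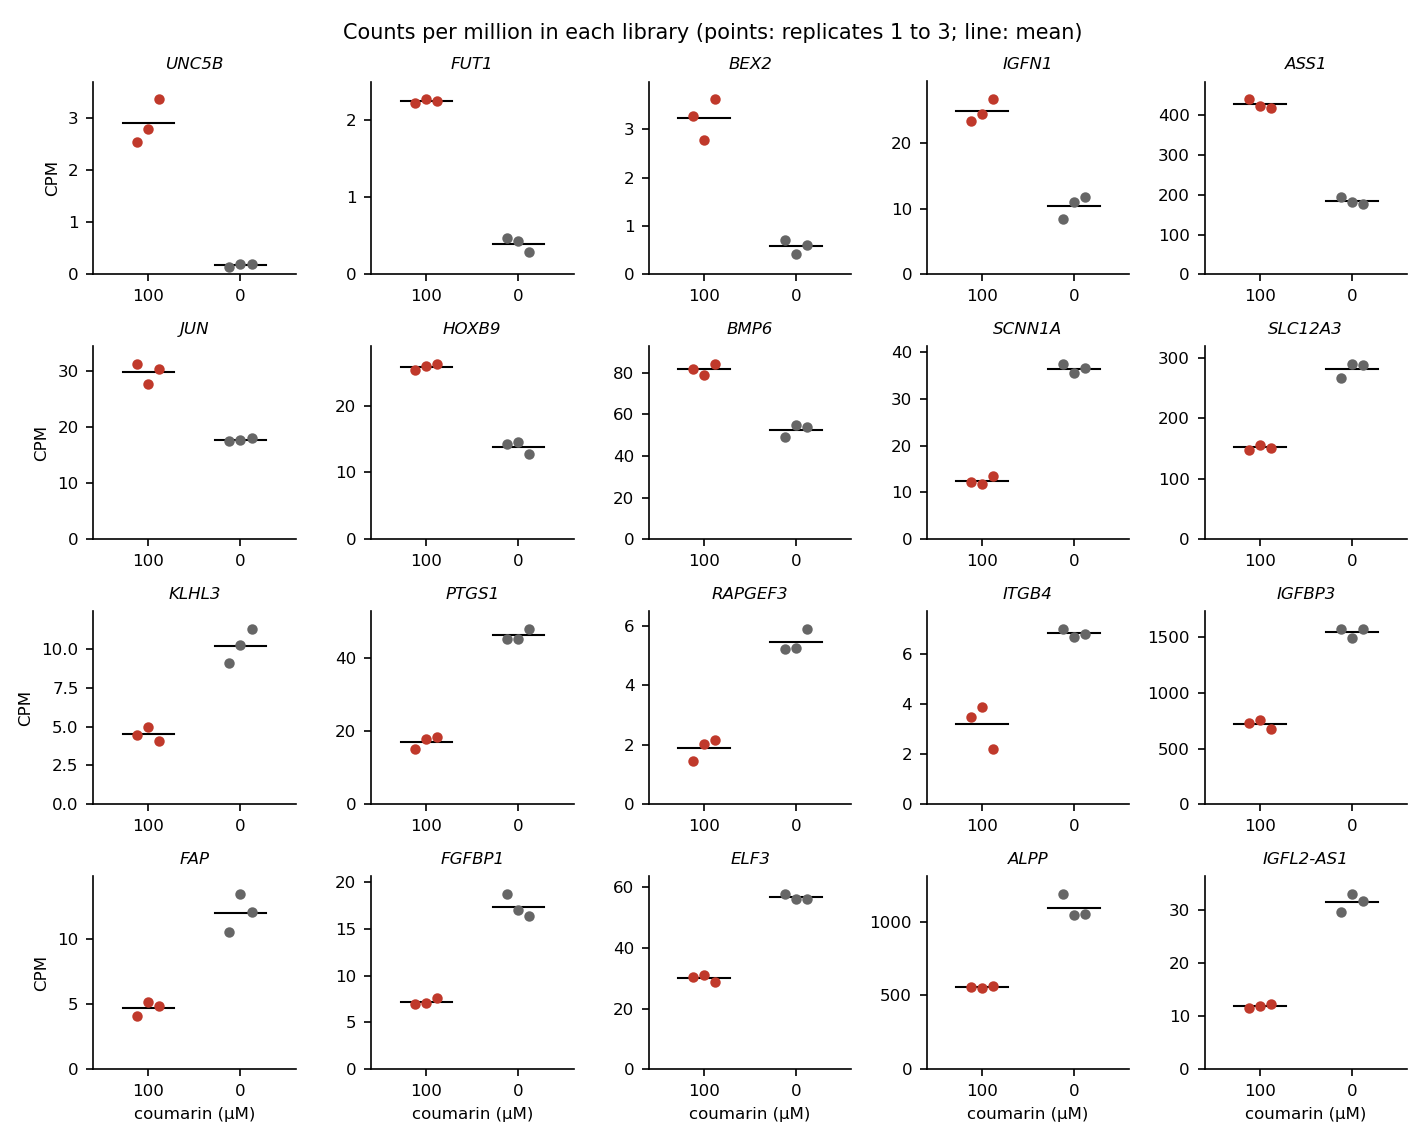
CPM in each library for 20 genes, with 100 µM (red) to the left of 0 µM (grey) and a line at each group mean, and with every vertical axis starting at 0. The groups do not overlap for any of the 20, because the rule for genes named by size required it (40.8% of all tested genes had groups that did not overlap). The means of UNC5B are 2.90 CPM at 100 µM and 0.175 CPM at 0 µM.

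Among the secreted genes named by size, IGFBP3 was the most abundant. IGFBP3, a carrier of insulin-like growth factors in the extracellular fluid (ENSG00000146674; chromosome 7, 45912245 to 45921874), had 731, 754 and 673 CPM at 100 µM, against 1571, 1497 and 1575 CPM at 0 µM, 2.15-fold lower in the treated cells. The log2 change was -1.11 ± 0.05 (edgeR adjusted p = 5.6e-19). IGFBP6 fell to 23.4 ± 0.417 CPM, against 44.2 ± 2.23 CPM. Both belong to the matrix glycoprotein and matricellular list, in which 21 of 49 genes fell and 4 rose, with a median of -0.20. TGFBI, a matrix adhesion protein induced by TGF-beta, fell by 0.59. Of 22 genes that cross-link or modify matrix, 10 fell and 2 rose, among them PLOD2 at -0.29 and LOXL4, a lysyl oxidase, at -1.10 ± 0.20.

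FAP, a membrane-bound serine protease of activated fibroblasts that is also shed, had 4.04, 5.17 and 4.88 CPM at 100 µM, against 10.6, 13.5 and 12.1 CPM at 0 µM (-1.35 ± 0.11; edgeR adjusted p = 3e-12). In its list of secreted and membrane serine proteases, 10 of 32 fell and 1 rose, and 6 fell and 1 rose against untreated replicate 1 alone. FGFBP1, which binds fibroblast growth factors and frees them from the matrix, had 7.01, 7.03 and 7.597 CPM at 100 µM and 18.7, 16.97 and 16.4 CPM at 0 µM. At 10 µM its mean was 21.6 CPM, above that of untreated cells, and the step between 100 and 10 µM was -1.57 (edgeR adjusted p = 8.1e-20 for that contrast, in which 18.3% of all tested genes differed). Collagen chain genes had 7 falls and 3 rises among 25, and 12 and 1 against the 0.001 to 1 µM libraries, and COL3A1, a fibrillar chain, fell to 949.7 ± 16.3 CPM, against 1164 ± 32.2 CPM. Of 16 laminin and basement membrane genes, 4 fell and 3 rose, with LAMA1 at -0.50 and LAMB3 at -0.33. Against the 0.001 to 1 µM libraries, 10 fell and 1 rose.

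Among growth factor genes, the Wnt ligands WNT9A and WNT5A fell by 1.08 ± 0.11 and 0.72 ± 0.04, and NOTUM, which inactivates Wnt proteins, fell by 0.50. WNT5A had 59.6 ± 0.888 CPM at 100 µM and 98.1 ± 1.17 CPM at 0 µM. EDN1, the vasoconstrictor endothelin-1, fell by 0.55. Cytokine genes had 7 falls and 1 rise among 23, and 6 and 4 against the 0.001 to 1 µM libraries, including the TNF family ligands CD70 at -0.41 and TNFSF9 at -0.34. C1QTNF6, a C1q and TNF related protein, had 125, 126 and 126 CPM at 100 µM, against 251, 251 and 250.3 CPM at 0 µM, and replicates differed little (-0.997 ± 0.04; edgeR adjusted p = 1e-22). In the complement list that holds it, 9 of 23 fell, with CD59, an inhibitor of the membrane attack complex, at -0.42.

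Fewer secreted products rose, and those named by size leave out genes reported earlier and genes under 1 CPM on average. At least 2-fold, 9 of the 393 secreted genes rose and 16 fell, against 0.575% and 1.29% of all genes tested. In the peptide hormone and neuropeptide list, rises led: 6 of 22 rose, 4 of them at least 2-fold, and 2 fell, with a median log2 change of 0.04. BMP6, a bone morphogenetic protein, had 81.6, 78.9 and 84.2 CPM at 100 µM, against 49.1, 55.1 and 54.0 CPM at 0 µM, a log2 change of 0.63 ± 0.05 (edgeR adjusted p = 1.4e-13). S100P, a small calcium-binding protein, had 52.9, 48.6 and 52.3 CPM at 100 µM and 31.3, 33.8 and 32.5 CPM at 0 µM. Its change was 0.66 ± 0.06, whereas S100A4 of the same family fell by 0.41. IL11, a cytokine of the IL-6 group, rose by 0.60 ± 0.12, a call lost against untreated replicate 1 alone. The matrix protease gene ADAMTS1 rose by 0.51, the Wnt enhancer gene RSPO3 by 0.44, the neuropeptide gene GAL by 0.43 and the vascular growth factor gene VEGFA by 0.28.

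Inside the cell, the 2 cyclic AMP sensors of the Epac type fell together. RAPGEF3 and RAPGEF4 encode exchange factors that activate RAP GTPases when cyclic AMP binds. RAPGEF3 had 1.46, 2.04 and 2.17 CPM at 100 µM, against 5.21, 5.26 and 5.91 CPM at 0 µM (-1.51 ± 0.14; edgeR adjusted p = 2.2e-11), and RAPGEF4 had 0.418, 0.714 and 0.679 CPM, against 1.84, 1.61 and 1.94 CPM (-1.55 ± 0.26). Of 22 genes for cyclic nucleotide phosphodiesterases, which break cyclic AMP and cyclic GMP down, and for adenylyl cyclases, which make cyclic AMP, 11 fell and 3 rose. PDE4B fell to 31.8 ± 0.626 CPM, against 50.2 ± 2.41 CPM, and PDE10A rose by 0.29. Against untreated replicate 1 alone, 3 of the list fell and 1 rose.

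PTGS1, cyclooxygenase 1, which starts prostaglandin synthesis (ENSG00000095303; chromosome 9, 122370530 to 122395703), had 15.0, 17.9 and 18.3 CPM at 100 µM, against 45.2, 45.1 and 47.8 CPM at 0 µM. It was 2.69-fold lower (-1.43 ± 0.06; edgeR adjusted p = 7.7e-21). In the eicosanoid and phospholipase list, 17 of 48 fell and 5 rose. MGLL, which releases fatty acids such as arachidonic acid from monoglycerides, changed by -0.94 and the phospholipase receptor gene PLA2R1 by -0.86. HPGD, which inactivates prostaglandins, fell by 0.78.

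Among cytoskeleton genes, falls led in the actin list and rises in the microtubule list. Of 57 actin, tropomyosin and myosin genes, 22 fell and 2 rose, with a median of -0.11. ACTG1, a cytoplasmic actin, fell to 1438 ± 47.1 CPM, against 1909 ± 101 CPM, SYNPO, an actin-bundling protein, fell by 0.65, and MYO7A, an unconventional myosin, by 1.21. Of 45 tubulin and microtubule genes, 15 rose and 5 fell, with a median of 0.08, and 7 rose and 2 fell against untreated replicate 1 alone. TTLL12 and TUBGCP4 rose by 0.31 and 0.32, and TUBG2, a gamma tubulin, fell by 0.51. Among 27 keratin and intermediate filament genes, 9 fell and 4 rose, with KRT18 at -0.58, KRT80 at -0.65 and the junction protein gene JUP at -0.70.

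FUT1 had the largest rise of the intracellular genes named by size (ENSG00000174951; chromosome 19, 48748011 to 48755390). It encodes a Golgi enzyme that adds fucose to make the H blood group antigen. FUT1 had 2.23, 2.28 and 2.25 CPM at 100 µM, against 0.468, 0.427 and 0.291 CPM at 0 µM, 5.66-fold higher (2.50 ± 0.27; edgeR adjusted p = 1.9e-09). Its head-to-head neighbour FGF21, a stress hormone gene that the ATF4 response is known to induce, rose by 3.41 ± 0.43. HAS3, which makes hyaluronan, rose by 1.03 ± 0.24, and OTUD7A, a deubiquitinase, by 1.24 ± 0.23. The cell cycle genes CCNE1, cyclin E1, and CDKN1A, an inhibitor of cyclin-dependent kinases, rose by 0.94 and 0.59. In the list of cyclins and such inhibitors, 3 of 27 tested genes rose and 4 fell, 25.9% against 31.6% of all tested coding genes. SOCS2, a feedback inhibitor of cytokine receptors, rose by 0.68, a call lost in 4 of 18 alternatives.

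The start regions of FUT1 and of 3 other named genes hold the letters TGATGNAAN, the core of the C/EBP-ATF response element that ATF4 dimers are known to bind. RefSeq start windows (GRCh38.p14, 250 bases before to 50 after the first listed start of a gene) were found for 53 of the 70 coding genes named by size. Both strands were searched. None of the 4 windows also held TGANTCA, the AP-1 motif, found in 4.51% of windows of tested coding genes. None held CACGTG, the E-box, found in 10.2% of windows of tested coding genes. The windows are shown, each on the strand of its gene, because these are the named genes in which a match was found, and capitals mark it.
FUT1, chr19:48755309-48755608, minus strand: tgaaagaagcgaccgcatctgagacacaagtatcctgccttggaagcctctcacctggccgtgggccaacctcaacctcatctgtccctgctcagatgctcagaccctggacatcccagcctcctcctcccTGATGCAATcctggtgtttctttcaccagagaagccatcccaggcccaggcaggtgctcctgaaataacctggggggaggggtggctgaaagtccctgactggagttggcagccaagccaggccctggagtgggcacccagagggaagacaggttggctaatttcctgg
IL20RB, chr3:136957733-136958032, plus strand: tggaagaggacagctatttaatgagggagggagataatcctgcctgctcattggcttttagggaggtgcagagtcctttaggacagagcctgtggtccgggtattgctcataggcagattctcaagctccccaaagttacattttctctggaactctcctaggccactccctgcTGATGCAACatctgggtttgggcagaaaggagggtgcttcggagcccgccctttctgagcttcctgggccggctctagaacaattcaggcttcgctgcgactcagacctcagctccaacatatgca
S100P, chr4:6693628-6693927, plus strand: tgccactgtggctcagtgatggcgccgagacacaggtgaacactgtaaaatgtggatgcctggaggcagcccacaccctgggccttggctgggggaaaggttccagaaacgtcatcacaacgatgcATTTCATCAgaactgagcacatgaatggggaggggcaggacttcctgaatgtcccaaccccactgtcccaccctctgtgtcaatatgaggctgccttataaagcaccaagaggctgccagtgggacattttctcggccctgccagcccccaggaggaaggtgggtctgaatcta
KCNT2, chr1:196608391-196608690, minus strand: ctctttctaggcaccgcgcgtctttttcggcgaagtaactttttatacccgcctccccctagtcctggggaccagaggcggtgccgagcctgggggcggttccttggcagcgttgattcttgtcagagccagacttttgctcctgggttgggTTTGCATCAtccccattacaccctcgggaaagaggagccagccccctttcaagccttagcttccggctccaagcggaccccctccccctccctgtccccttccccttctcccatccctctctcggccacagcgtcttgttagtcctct

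Counted to its first base on the gene's strand, the match lies at -119 from the start in FUT1, at -76 in IL20RB, at -124 in S100P and at -98 in KCNT2, and in S100P and KCNT2 it reads on the opposite strand. FUT1, IL20RB and S100P rose and KCNT2 fell. The motif was in 3 of 25 windows of named genes that rose and in 1 of 28 of those that fell, against 3.67% of all 27305 windows and 1.59% of the 9987 windows of tested coding genes. In the same 25 and 28 windows, the E-box was in 4 and 1, and the AP-1 motif in 1 and 1. A match of letters describes a sequence and shows no binding. The RefSeq starts of FUT1 and FGF21 are 166 bases apart on opposite strands, their windows share 265 bases, and the match lies between the starts, with its nearest base 47 bases before that of FGF21 and 111 bases before that of FUT1.

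Coding genes in none of the lists gave further large changes. BEX2, a small X-linked signalling gene, had 3.28, 2.79 and 3.63 CPM at 100 µM, against 0.702, 0.427 and 0.613 CPM at 0 µM (2.47 ± 0.26; edgeR adjusted p = 1.5e-09). The kinesin gene KIF21B rose by 1.81 ± 0.28 and the synaptic gene RIMS4 by 1.33 ± 0.28, both with untreated means under 1 CPM. IGFN1, a muscle protein with immunoglobulin and fibronectin domains, had 23.3, 24.3 and 26.6 CPM at 100 µM and 8.45, 11.05 and 11.8 CPM at 0 µM. The oxysterol-binding protein gene OSBPL6 rose by 1.08 ± 0.10. Among falls, HRASLS2, a phospholipid acyltransferase, changed by -1.58 ± 0.17 and RARRES1, named for its induction by retinoids, by -1.39 ± 0.13. BMF, a pro-death protein of the BCL2 family, had 3.10, 3.23 and 3.16 CPM at 100 µM, against 8.55, 8.71 and 8.81 CPM at 0 µM (-1.46 ± 0.12). CYP24A1, which breaks down active vitamin D, had 8.75, 8.33 and 7.81 CPM, against 18.6, 20.8 and 21.8 CPM (-1.30 ± 0.08), and CRB2, a polarity protein, fell by 1.33 ± 0.18.

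The largest change among the abundant transcripts named, those with a mean of at least 100 CPM, was in ASS1. ASS1, argininosuccinate synthetase of the urea cycle and of arginine synthesis (ENSG00000130707; chromosome 9, 130444929 to 130501274), had 441, 424 and 417 CPM at 100 µM, against 193, 183 and 177 CPM at 0 µM. The groups were far apart, at 1.21 ± 0.04 (edgeR adjusted p = 2.1e-23). RNF187, a ubiquitin ligase, rose to 219 ± 1.77 CPM, against 134.2 ± 2.44 CPM, and TCEA1, a transcription elongation factor, to 362 ± 7.66 CPM, against 231 ± 8.31 CPM. Placental-type alkaline phosphatase, ALPP, had 557, 554 and 562 CPM at 100 µM, against 1191, 1050.2 and 1052 CPM at 0 µM (-0.98 ± 0.05), and since its paralog ALPG is nearly identical, counting could split reads between them. IER3, an early-response survival gene, fell by 1.01 ± 0.05, and TMEM106B, a lysosomal membrane protein, by 0.99 ± 0.07.

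The short ribosomal protein genes RPS28, RPS29 and RPL38 were also among the abundant rises, at 0.88, 0.87 and 0.75. RPS29 had 532, 540.3 and 571 CPM at 100 µM, against 319, 286 and 294 CPM at 0 µM. At the 5 doses in between, its mean was already 424 to 516 CPM. The calls of RPS28 and RPS29 were lost against the 0.001 to 1 µM libraries and with reads in no listed gene as a covariate. They were also lost against untreated replicate 1 alone, a fit with less precision. The part of the untreated libraries that stand apart was not tested. Processed pseudogenes share sequence with these genes, and reads could be split among them.

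**Figure D4:**
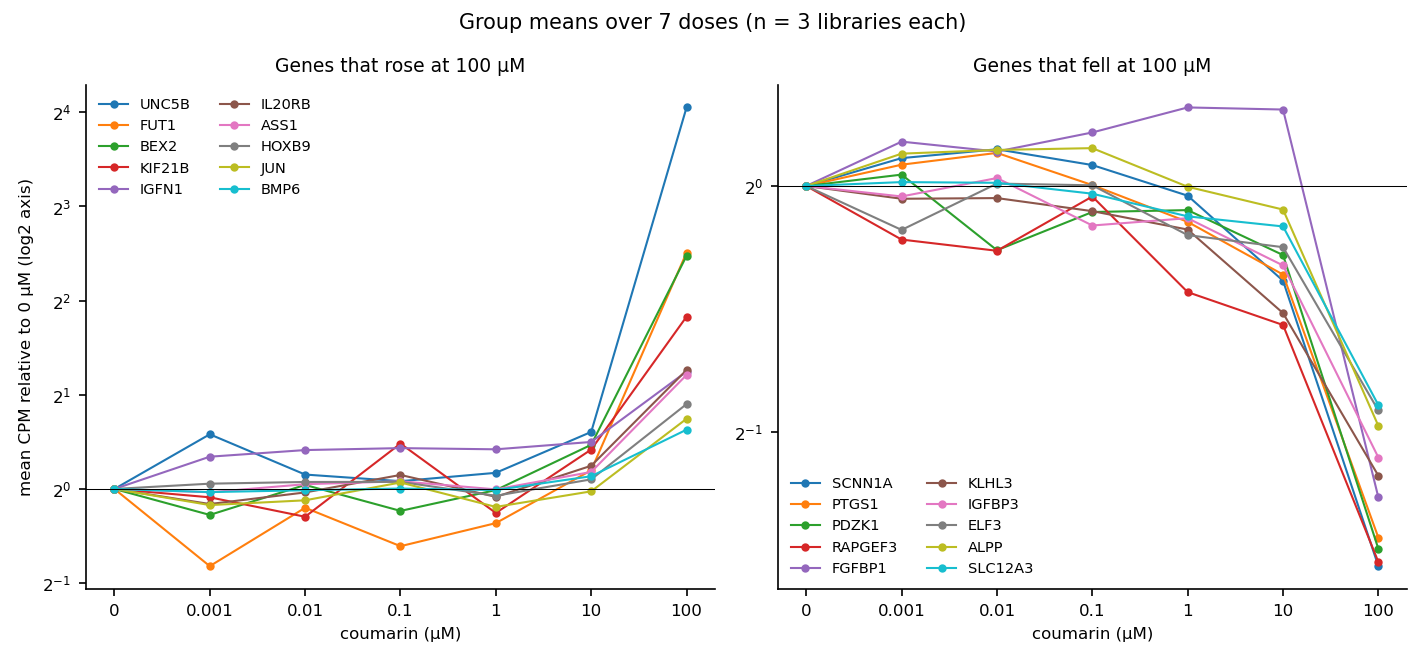
Mean CPM at each dose divided by the mean at 0 µM (vertical log2 axis) over the 7 doses in order (horizontal axis), for 10 genes that rose (left) and 10 that fell (right) at 100 µM, with 3 libraries per dose. UNC5B has means of 0.175, 0.266 and 2.90 CPM at 0, 10 and 100 µM, and KLHL3 has 10.2, 7.14 and 4.51 CPM.

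Several of these genes were also set against the next dose, 10 µM. ASS1 had a mean of 427 CPM at 100 µM and 209 CPM at 10 µM, JUN 29.7 and 17.4 CPM, and HOXB9 25.8 and 14.8 CPM. Among genes that fell, KLHL3 had means of 10.2, 9.85, 9.87, 9.52, 9.03, 7.14 and 4.51 CPM from 0 to 100 µM. PTGS1 had 46.03, 48.9, 50.5, 46.1, 41.6, 35.9 and 17.1 CPM over the same doses, and SCNN1A had 36.4, 39.4, 40.4, 38.6, 35.4, 27.9 and 12.5 CPM. For each of these genes the 100 and 10 µM groups differed in the edgeR test, with adjusted p from 7.1e-21 (ASS1) to 3.9e-06 (KLHL3).

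Among lncRNA genes, calls were fewer than among coding genes and mostly downward. Of 2619 tested lncRNA genes, 71 rose and 291 fell (13.8% in all), with a median log2 change of -0.17, whereas 31.6% of 12613 coding genes changed, with a median of 0.01. Calls moved with level: of the 3340 least abundant tested genes, of which 33.2% were coding, 1.71% rose and 5.6% fell, and of the 3340 most abundant 29.9% rose and 15.7% fell. The lncRNA median was -0.09 against untreated replicate 1 alone and -0.05 against the 0.001 to 1 µM libraries, where 106 rose and 271 fell. Against untreated replicate 1 alone, 44 rose and 119 fell. LINC genes had 44 falls and 7 rises among 223 and microRNA host genes 7 falls and no rise among 22. Against untreated replicate 1 alone, these were 20 falls and 2 rises for LINC genes and 3 falls for microRNA host genes, whose median was -0.20 with all untreated libraries and -0.05 against the 0.001 to 1 µM libraries.

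Among SNHG genes and like hosts of small nucleolar RNAs, rises led. Of 26 such genes, 16 rose and 4 fell, with a median of 0.18, and 15 rose and 2 fell against the 0.001 to 1 µM libraries. Against untreated replicate 1 alone, 9 rose and none fell. SNHG9 had 1.39, 2.11 and 1.51 CPM at 100 µM, against 0.468, 0.658 and 0.936 CPM at 0 µM (1.27 ± 0.28; edgeR adjusted p = 0.0005). Ribosomal protein pseudogenes had 19 rises and 7 falls among 99, but 4 and 4 against untreated replicate 1 alone. RN7SL2, an RNA of the signal recognition particle, had 228, 111 and 123.1 CPM at 100 µM and 30.1, 31.5 and 46 CPM at 0 µM, but its mean was already 128 CPM at 10 µM. Its near-identical copies make the count uncertain, as for the processed pseudogenes AC010343.1, AC144530.1, UBE2V1P2 and DHFRP1. DHFRP1 had 39.6, 38.9 and 41.1 CPM at 100 µM and 8.42, 8.55 and 23.2 CPM at 0 µM, and its call was kept in 6 of 18 alternatives.

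The largest fall among the noncoding genes named by size was in the lncRNA gene AC254633.1 (chromosome 1, 12618900 to 12619244). It had 0.872, 0.748 and 0.496 CPM at 100 µM, against 5.08, 5.26 and 5.39 CPM at 0 µM, 7.59-fold lower (-2.92 ± 0.16; edgeR adjusted p = 1.7e-17). It lies 1168 bp from DHRS3, a retinal reductase gene on the same strand that fell to 46.5 ± 2.21 CPM, against 104 ± 4.52 CPM. IGFL2-AS1 had 11.6, 11.9 and 12.3 CPM at 100 µM and 29.6, 33.01 and 31.7 CPM at 0 µM (-1.40 ± 0.07), and its nearest tested coding gene IGFL2 changed by -1.30 at under 1 CPM. AC137932.2 fell by 1.52 and overlaps ANKRD11 on the other strand, which rose by 0.17, and AL034550.2 fell by 1.45 and overlaps NOL4L on the other strand, which fell by 0.27. AC048341.1 and LINC01679 fell by 1.51 and 1.37, and their nearest tested coding genes, MON2 and SIK1, did not pass the test (-0.11 and 0.01). Without a stated strand setting, reads of overlapping genes on opposite strands cannot be told apart.

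**Figure D5:**
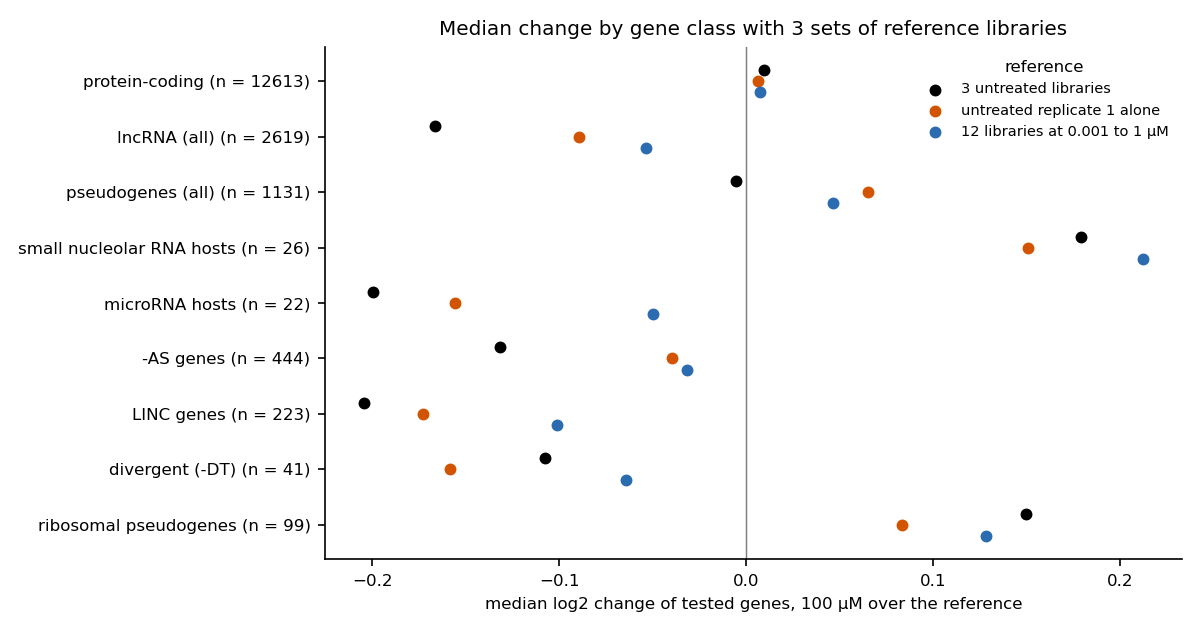
Median log2 change of all tested genes of a class at 100 µM (horizontal axis) against the 3 untreated libraries (black), untreated replicate 1 alone (orange) and the 12 libraries at 0.001 to 1 µM (blue). The lncRNA medians are -0.17, -0.09 and -0.05 against these references, while small nucleolar RNA hosts stay above 0 with all 3.

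Genes that lie side by side were compared among those with larger changes. Among 12582 pairs of neighbouring tested coding genes, 45 pairs had both members called at 1.5-fold or more, a change that 448 coding genes (3.55%) showed, 151 upward and 297 downward. In 40 of the 45 both moved in 1 direction, 9 pairs upward and 31 downward, and 33 of these lay within 50000 bp. The share of all 12582 pairs within that distance was not taken, so the 33 cannot be set against it. Pairs in a row share genes and are not separate observations. Many are tandem paralogs, for which reads may also be shared. The peptidylarginine deiminase genes PADI1 and PADI3 fell by 2.43 and 2.34 at under 1 CPM, FGFBP1 and FGFBP2 by 1.26 and 2.03, the aldo-keto reductases AKR1C1, AKR1C2 and AKR1C3 by 0.86, 0.62 and 0.64, and ALPP and ALPG by 0.98 and 1.16. Others are unrelated in sequence. PLA2R1 and ITGB6, 37055 bp apart on chromosome 2, fell by 0.86 and 1.53, and CAPN5, a calpain protease gene, and MYO7A, 2108 bp apart on chromosome 11, by 1.05 and 1.21. On chromosome 12, INHBC, INHBE, GLI1, MARS and DDIT3 stand in a row, and they rose by 1.14, 2.36, 0.66, 1.01 and 1.13. Each step of this row is counted as a pair among the upward ones, and INHBC was under 1 CPM. MARS and DDIT3 overlap at their ends. Opposite moves were seen in 5 pairs, such as FOSB at 0.71 and RTN2 at -0.89 on chromosome 19. The pairs named here were chosen after their values were seen.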

How the data were processed

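Poly(A) RNA of 21 cultures, 3 at each of 7 doses of coumarin, was measured. The authors deposited gene counts and FPKM values. Per the submitters' processing notes, HISAT2, DESeq2 and GRCh38 were used, while no source used here gives versions, the counting tool or its strand setting. The deposited FPKM values served only for an alternative fit and for the total number of reads behind them. Labels call the 3 cultures of a dose biological replicates, and p-values measure only the spread between them.

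Counts were fitted in R 4.3.3 with edgeR 4.0.16 (TMM, filterByExpr, robust quasi-likelihood F test, two-sided, all 21 libraries, 14 residual degrees of freedom), and p-values were adjusted over all 16699 genes tested. A level in CPM uses the TMM-scaled library total. Alternatives used DESeq2 1.42.0 and limma 3.58.1 with pseudocounts of 1 and 0.1. The tests were tested on simulated data. Totals of 28912851 to 38448896 counts in the 6 libraries compared limit the precision, and 3 counts in a library correspond to about 0.1 CPM.

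Genes named by size were the 6 largest rises and 6 largest falls of each class and of coding genes with a mean of at least 100 CPM, leaving out genes reported earlier, with a mean of at least 1 CPM, an adjusted p under 0.05 and groups that did not overlap. From every list, 3 members at most were added in order of p. Members and lists were chosen with earlier results of these data known, and the patterns of the apolipoprotein and cytokine lists were corrected after the files were seen. Promoter sequences are RefSeq's (GRCh38.p14).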

Additional observations from a re-analysis of the deposited data

How the results depend on the processing

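The 18 alternative analyses left 233 of the 274 named genes called in every one, and 41 lost the call in at least 1, most often against untreated replicate 1 alone (29 genes), with reads in no listed gene as a covariate (20 genes) or against the 0.001 to 1 µM libraries (11 genes). Of the named genes, SKI and TIMP1 turned direction, to -0.0522 and -0.000239 on the log2 scale against the 0.001 to 1 µM libraries, and the cause was not tested. The 4558 genes changed became 2222 against untreated replicate 1 alone, 2799 with the covariate and 2966 at an adjusted p under 0.01. The 311 genes changed at least 2-fold became 158 with a filter of 1 CPM in 3 libraries, which tests fewer genes, and 48 and 167 with limma on log2(FPKM + 1) and log2(FPKM + 0.1), where the pseudocount shrinks low genes. The 3051 genes that differed between 100 and 10 µM became 1825 at an adjusted p under 0.01. Leaving out 1 library gave 3516 to 4318 genes changed, 286 to 338 changed at least 2-fold and 2204 to 2837 between 100 and 10 µM. With the replicate number as a block, the 3 counts were 4446, 306 and 2951. The numbers were not taken to pair the samples, since deviations of same-numbered libraries at 100 and 0 µM correlated at only 0.047, 0.021 and 0.022, although each was the highest for its library. Genes at low counts were limited by depth.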
